A study of Mus musculus with 72 samples.

Results

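Voltage-gated sodium channel genes were examined as a set of 8 named genes out of 53715 genes with a count row. The set comprised 5 genes for the pore-forming alpha subunit (Scn1a, Scn2a, Scn3a, Scn8a and Scn10a) and 3 genes for auxiliary beta subunits (Scn2b, Scn3b and Scn4b) and was given by gene name, with no threshold on measured values. The RNA came from 18 males, each 18 weeks old, of which 6 were Gnb5-/-, 6 Gnb5+/- and 6 Gnb5+/+, on a C57BL/6J background with exon 3 of Gnb5 deleted in the germline of the mutants. Whole atria and whole ventricles, left and right together, came from all 3 genotypes, and the whole cerebellum, both hippocampi and the whole cerebral cortex came from Gnb5-/- and Gnb5+/+ mice, giving 72 libraries in 12 groups of 6 with no treatment. Gnb5 encodes a G protein beta subunit that partners regulators of G protein signalling, and the comparison asked which transcripts differ when it is lost.

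A voltage-gated sodium channel opens when the membrane depolarises, admits sodium ions that drive the upstroke of the action potential, and then inactivates. Each channel has 1 alpha subunit, which forms the pore and senses voltage, and beta subunits, which span the membrane once, bind the alpha subunit and tune its gating and delivery to the cell surface. Brain neurons use mainly the products of Scn1a, Scn2a, Scn3a and Scn8a. Scn10a is best known from sensory neurons and has also been associated with cardiac conduction. Scn4b, whose product can support the resurgent current of fast-firing neurons, is used by both heart and brain.

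Scn1a, Scn2a and Scn3a lie together on chromosome 2 (GRCm38), at 66270778-66440840, 65620771-65767447 and 65457118-65567627, and Scn8a lies on chromosome 15 at 100869858-101045938. The remaining 4 members share chromosome 9 with Gnb5: Scn3b at 40269217-40291618, Scn2b at 45117782-45130070, Scn4b at 45138395-45154152 and Scn10a at 119608456-119719322. They lie 30.2 (Scn4b) to 44.3 Mb (Scn10a) from Gnb5, and Scn2b and Scn4b are neighbours on the plus strand. No exon of a member overlapped an exon of another annotated gene. The longest annotated transcripts of Scn1a, Scn2a, Scn3a and Scn8a measured 8386 to 11436 bases and those of the beta subunit genes 4150 to 4982 bases, a difference that matters for 4 libraries described further on.

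RefSeq start windows (GRCm38.p6) were held for 6 of the 8 members. The 250 bases before the start of Scn1a and of Scn2a (the first of its 2 starts) are shown because both genes are abundant in brain and scarce in heart, and because these windows shared 1 exact run of 10 bases, marked in capitals. It was the longest run found when these windows were searched for shared stretches of at least 10 bases. The windows are chr2:66440838-66441087 on the minus strand for Scn1a and chr2:65620519-65620768 on the plus strand for Scn2a.
Scn1a: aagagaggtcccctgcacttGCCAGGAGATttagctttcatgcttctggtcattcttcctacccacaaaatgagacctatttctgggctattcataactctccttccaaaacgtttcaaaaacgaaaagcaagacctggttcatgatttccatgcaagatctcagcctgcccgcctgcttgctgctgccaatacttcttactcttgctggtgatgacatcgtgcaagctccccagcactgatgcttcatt
Scn2a: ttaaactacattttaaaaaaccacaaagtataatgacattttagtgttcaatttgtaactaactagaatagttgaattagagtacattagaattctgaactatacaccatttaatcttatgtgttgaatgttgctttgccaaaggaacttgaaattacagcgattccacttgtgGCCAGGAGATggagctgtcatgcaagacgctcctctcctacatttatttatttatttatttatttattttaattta
The shared run, GCCAGGAGAT, began 230 bases before the start of Scn1a and 76 bases before that of Scn2a. From its first base onward 20 of 23 bases were identical, a span that ends just before the sequences differ again. On either strand the run occurred in 38 of 32851 start windows of the same length, 0.116%, and in 2 of the 8 windows held for members. These 2 are the windows it was picked from, so that count was fixed by the search. The left part of the RE1 element that binds the neuronal repressor REST, TTCAGCACC, was in 0 of those 8 windows and in 0.301% of all windows on either strand. Of the Scn1a window, 208 bases also fell in an exon of Gm13629, annotated on the opposite strand. These matches describe the letters of the windows and were not tested as sites.

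Between 29204390 and 48807435 reads were counted on genes per library (median 38864900). Levels are given as normalized CPM (gene counts relative to the library total, scaled by TMM factors over all 72 libraries), as mean ± SD of 6 mice, or as RPKM, the same value per kilobase of the gene's merged exons, where genes are compared with each other. Gnb5 was 4.26 to 2.84 log2 units lower in Gnb5-/- than in Gnb5+/+ tissues and 0.95 to 0.93 lower in Gnb5+/- heart, as the labels state. Defining markers matched the labelled tissues, with the 5 heart muscle markers summing to at least 39588 CPM in every heart library and the cerebellar granule cell markers to at least 1758 CPM in every cerebellum. In 4 libraries, genes with transcripts of 7000 bases or more were low against genes of 2500 bases or fewer: the index of this difference (log2, against Gnb5+/+ libraries of the tissue) was -2.0 in the Gnb5-/- cerebellum of mouse 12, -2.0 and -1.10 in the Gnb5-/- cortex of mice 14 and 3, and -1.27 in the Gnb5+/- ventricles of mouse 4, and at least -0.30 in all others. The index of Gnb5-/- cerebella ran from -2.0 to -0.013 (median -0.10), against -0.080 to 0.046 (median -0.0024) in Gnb5+/+ cerebella. Of uniquely aligned reads, 6.86% to 8.32% fell outside genes in the brain libraries among these 4, against at least 11.7% in other brain libraries. That share was 2.85% in the ventricles of mouse 4, against at least 4.41% in other ventricles. The Gnb5+/+ cerebellum and hippocampus of mouse 8 held heart muscle RNA, with Myh6, the atrial and adult ventricular myosin heavy chain, at 31.2 and 107 CPM against at most 0.549 in any Gnb5-/- cerebellum or hippocampus. In bulk tissue, fewer cells of a type and less RNA per cell cannot be told apart.

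In Gnb5+/+ mice the members fell into different tissue patterns. Scn1a, Scn2a, Scn8a and Scn2b averaged at least 109 CPM in each of the 3 brain tissues and at most 2.54 CPM in heart. Scn3a and Scn3b were high in hippocampus and cortex and low in cerebellum and heart. Scn10a was highest in atria, and Scn4b was highest in cortex and ventricles.

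**Figure D1:**
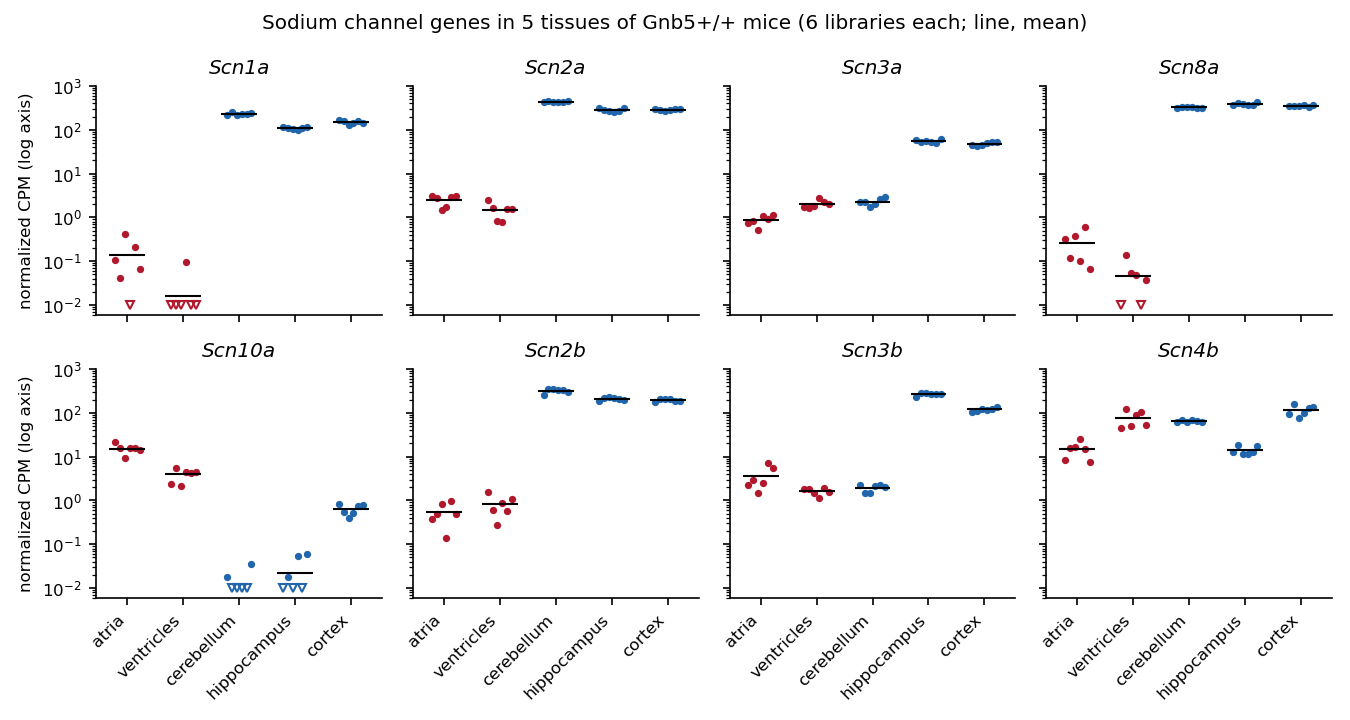
Normalized CPM (log axis) of each member in the 5 tissues of Gnb5+/+ mice; points are 6 libraries per tissue (red heart, blue brain), lines are means, and open triangles at the foot of the axis are libraries with 0 reads. Scn10a alone among the 8 panels has its highest level in atria, at a mean of 15.3 CPM against 0.640 CPM in cortex.

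Scn1a, the alpha subunit that carries much of the sodium current of inhibitory interneurons, was 229.8 ± 14.7 CPM in cerebellum, 152 ± 13.9 in cortex and 109 ± 6.60 in hippocampus. Its lowest, median and highest library was 213, 229 and 253 CPM in cerebellum, 132, 153 and 168 in cortex, and 99.8, 109.9 and 117 in hippocampus. Cerebellum did not overlap the other brain tissues, and all 3 pairs differed (edgeR quasi-likelihood test, adjusted p at most 0.000868, with log2 differences of -0.67 for cortex and -1.14 for hippocampus against cerebellum). In atria it averaged 0.139 CPM, and in ventricles only 2 reads were counted in the 6 libraries together.

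Scn2a, the alpha subunit of the axons of excitatory neurons, was 437 ± 14.4 CPM in cerebellum, 289 ± 15.8 in cortex and 281 ± 24.8 in hippocampus. Its libraries ran from 423 to 459 CPM in cerebellum (median 435), from 262 to 306 in cortex (median 290.1) and from 256 to 313 in hippocampus (median 272), so that cerebellum stood above the other regions and these overlapped. Cortex and hippocampus did not differ beyond their spread (log2 difference 0.02, 95% interval -0.21 to 0.26, edgeR adjusted p = 0.904). It was 2.54 ± 0.730 CPM in atria and 1.47 ± 0.632 in ventricles, a log2 difference of -0.82 for ventricles against atria (edgeR adjusted p = 0.000512).

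Scn8a, the alpha subunit concentrated at the axon initial segment and at nodes of Ranvier, had the most even level across brain. It was 385 ± 21.7 CPM in hippocampus (359.6 to 421, median 379), 348 ± 12.7 in cortex (331 to 366, median 346) and 324 ± 10.4 in cerebellum (313 to 338, median 322). No pair of brain regions passed the threshold, the widest being hippocampus against cerebellum (log2 difference 0.19, 95% interval -0.01 to 0.39, edgeR adjusted p = 0.0830). DESeq2 called all 3 of these small differences, and a fit of 2 tissues alone called hippocampus against either other region. In heart Scn8a was 0.265 ± 0.207 CPM in atria and 0.0468 CPM, 6 reads in all, in ventricles.

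Scn3a, the alpha subunit best known from the developing brain, was 55.3 ± 4.24 CPM in hippocampus (49.5 to 61.1, median 54.1) and 48.2 ± 3.67 in cortex (43.7 to 52.0, median 48.1). In cerebellum it was 2.27 ± 0.398 CPM (1.73 to 2.85, median 2.21), lower than in cortex by a log2 difference of 4.34 (edgeR adjusted p = 3.4e-24). Ventricles held 2.04 ± 0.439 CPM, which did not differ beyond the spread from cerebellum (log2 difference 0.21, 95% interval -0.06 to 0.49, edgeR adjusted p = 0.140). Atria held 0.876 ± 0.226 CPM, and Scn3a was the 1 alpha subunit gene higher in ventricles than in atria (log2 difference 1.20, edgeR adjusted p = 2.0e-07). Cortex against hippocampus did not pass the threshold (log2 difference -0.21, edgeR adjusted p = 0.107), but it did with the mouse as a block (-0.22, edgeR adjusted p = 0.0367).

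Scn10a was 15.3 ± 3.79 CPM in atria (9.43 to 21.2, median 15.7) and 3.92 ± 1.39 in ventricles (2.15 to 5.65, median 4.43). The atrial libraries were all above the ventricular ones, and the log2 difference was -1.99 (95% interval -2.47 to -1.50, edgeR adjusted p = 2.2e-08). Cortex, at 0.640 ± 0.178 CPM (0.388 to 0.851, median 0.644), stood apart from hippocampus and cerebellum, in which 7 and 3 reads were counted in 6 libraries each. The 3 cerebellar reads came from mice 8 and 15, and mouse 8 is the animal whose cerebellum held heart muscle RNA. In the 6 Gnb5-/- cerebella no read of Scn10a was counted, which allows at most 0.00863 CPM over the group at a limit of 3 reads.

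Scn2b, a beta subunit that binds the alpha subunit covalently, was 316 ± 36.7 CPM in cerebellum (254 to 353, median 326), 210.2 ± 15.9 in hippocampus (188 to 231, median 211) and 196 ± 11.9 in cortex (178 to 208, median 197). Cerebellum was above both (log2 differences of -0.64 for hippocampus and -0.76 for cortex, edgeR adjusted p = 5.2e-05 and 4.5e-06), and hippocampus and cortex overlapped and did not pass the threshold (-0.12, 95% interval -0.38 to 0.14, edgeR adjusted p = 0.522). It was 0.827 ± 0.457 CPM in ventricles and 0.547 ± 0.307 in atria, a log2 difference of 0.58 that did not pass the threshold (edgeR adjusted p = 0.117) and did in DESeq2 (0.63, adjusted p = 0.0103).

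Scn3b, a beta subunit that binds without a covalent link, was 266 ± 18.4 CPM in hippocampus (230.1 to 279.6, median 272), 119 ± 11.2 in cortex (105 to 136, median 119.7) and 1.94 ± 0.360 in cerebellum (1.48 to 2.27, median 2.06). The 3 regions did not overlap, with log2 differences of 5.88 for cortex against cerebellum and -1.17 for cortex against hippocampus (edgeR adjusted p = 3.4e-21 and 1.4e-06). Atria held 3.65 ± 2.15 CPM, with 7.01 and 5.57 in mice 7 and 8 and at most 2.95 in the other 4. Ventricles held 1.61 ± 0.283 CPM, a log2 difference of -1.20 against atria (edgeR adjusted p = 0.000264).

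Scn4b was 116 ± 32 CPM in cortex (75.5 to 163, median 112), 78.1 ± 32.4 in ventricles (45.9 to 122, median 72.3), 64.5 ± 3.34 in cerebellum (61.3 to 68.8, median 64.1), 14.7 ± 6.39 in atria (7.64 to 25.0, median 15.3) and 14.1 ± 3.04 in hippocampus (11.5 to 18.0, median 12.7). It was the only one of the 8 members whose mean was above 10 CPM in all 5 tissues. Ventricles exceeded atria by a log2 difference of 2.38 (95% interval 1.87 to 2.89, edgeR adjusted p = 1.6e-09), and cortex exceeded hippocampus by 3.03 (edgeR adjusted p = 2.5e-11). Ventricles and cerebellum did not differ beyond the spread (edgeR adjusted p = 0.421), nor did hippocampus and atria, whose log2 difference of -0.08 (95% interval -0.58 to 0.42, edgeR adjusted p = 0.769) was slightly positive under DESeq2 and RLE scaling. The 5 striatal neuron markers, among them the dopamine and adenosine receptor genes Drd1 and Adora2a, summed to 184 to 427 CPM in the Gnb5+/+ cortex libraries and to at most 45.4 CPM in the Gnb5+/+ hippocampus. The cortex of mouse 17 was lowest both in these markers and in Scn4b, at 75.5 CPM, and the part of striatal tissue in the cortical level of Scn4b was not tested.

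Counted over all pairs of tissues in Gnb5+/+ mice, most members passed the threshold, as did most genes. Between ventricles and atria 7 of 8 members differed, 2 higher and 5 lower in ventricles, where 51.6% of all 19477 genes tested were called, 21.8% higher and 29.8% lower. Of the 5 lower, Scn1a and Scn8a passed the filter on low counts only through their brain libraries. They counted 2 and 6 reads in all Gnb5+/+ ventricles together, and 27 and 50 in all Gnb5+/+ atria. Against atria, 8 members differed in cerebellum (86.3% of all genes), 7 in hippocampus (86.4%) and 8 in cortex (87%). Against ventricles, 5 differed in cerebellum (86.6%), 8 in hippocampus (86.9%) and 8 in cortex (87.4%). Within brain, 6 members differed between hippocampus and cerebellum (68.3%), 7 between cortex and cerebellum (69.1%) and 4 between cortex and hippocampus (33.5%). The median log2 difference of all genes between a brain and a heart tissue was 0.15 to 0.26 with TMM and 0.20 to 0.28 with RLE scaling, higher in brain, and the log2 differences of Scn1a, Scn2a, Scn8a and Scn2b between brain and heart were 6.77 or more.

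Per kilobase, the make-up of the set changed between tissues. Scn2a was the most abundant alpha subunit gene of the list in cerebellum, at 34.4 RPKM against 20.6 for Scn1a and 20.6 for Scn8a. In hippocampus Scn8a led with 24.4 RPKM ahead of Scn2a with 22.1, and in cortex Scn2a and Scn8a were at 22.7 and 22.1 RPKM. In atria Scn10a made up 86.3 ± 2.59% of the summed RPKM of the 5 alpha subunit genes, and in ventricles 61.9 ± 9.23%, with Scn3a at 22 ± 5.85% and Scn2a at 15.5 ± 8.15%. These shares cover the listed genes and leave out any other alpha subunit of the tissue.

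Among the 3 beta subunit genes of the list, Scn2b made up 83.5 ± 1.45% of the summed RPKM in cerebellum, where Scn3b was 0.446 ± 0.119%. In hippocampus Scn3b and Scn2b were near each other, at 48.6 and 45.1 RPKM, with Scn4b at 2.82 RPKM. In cortex all 3 were abundant, at 42.0 RPKM for Scn2b, 23.3 for Scn4b and 21.9 for Scn3b. In heart Scn4b led these 3 genes, with 96.6 ± 1.89% in ventricles and 77.2 ± 13% in atria. The shares leave out any other beta subunit gene of the tissue. Dividing by the longest transcript in place of the merged exons exchanged the places of Scn1a and Scn8a in cerebellum and of Scn3b and Scn4b in cortex and left the other orders as given.

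**Figure D2:**
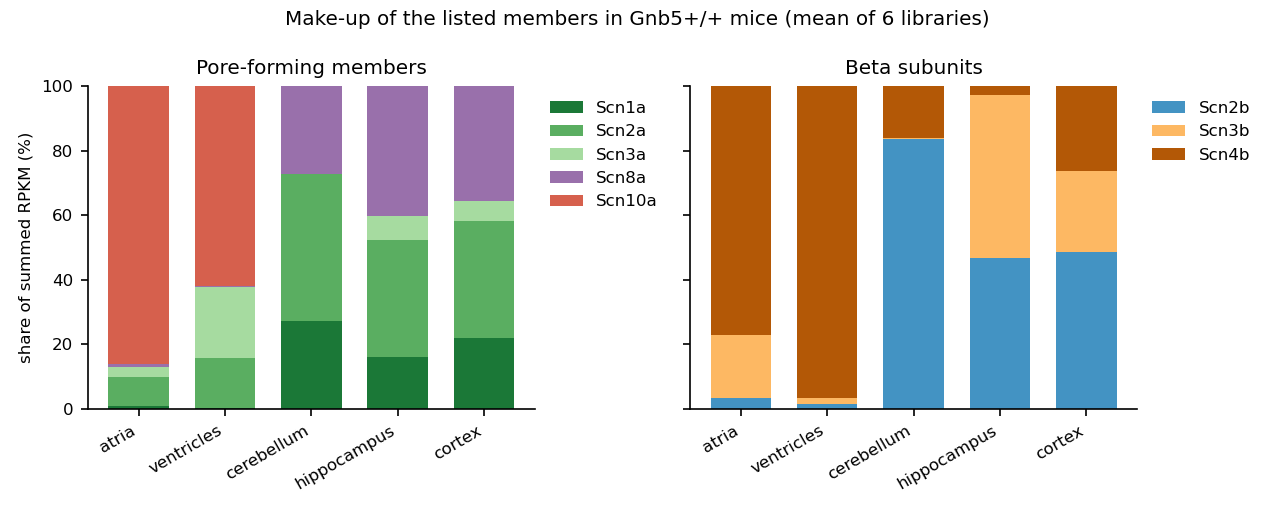
Mean share (%) of the summed RPKM in Gnb5+/+ mice for the 5 pore-forming members and the 3 beta subunits of the list, in 5 tissues of 6 libraries each. Scn10a takes 86.3% of the pore-forming sum in atria, and Scn4b takes 96.6% of the beta subunit sum in ventricles.

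The genes whose pattern over the 30 Gnb5+/+ libraries was most like a member's are given as a description, since libraries of a tissue share their composition and any gene of that tissue follows. For Scn10a they were Pcp4l1, Ptgfrn and Adgrd1 (Pearson r of 0.98, 0.98 and 0.97 on log2 CPM). Scn8a was closest to Spock1, Fbxo41 and Eno2, the neuronal enolase (r of at least 0.99). Scn4b had the loosest match, with Cst6, Dlg1 and Endou at an r of 0.86, 0.85 and 0.85. Within the tissue where each was highest, after genotype means were removed, Scn10a was closest to Cpped1, Sbk2 and Clcn1 over 18 atria (r = 0.86, 0.85 and 0.84), and Scn4b to Rasgrp2, Scube3 and Cd4 over 12 cortices (r = 0.95, 0.95 and 0.94). The 12 cortices include those of Gnb5-/- mice 14 and 3, which were low in long genes and held 55.4 and 103 CPM of Scn4b against 119 to 152 in the other Gnb5-/- cortices.

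Genotype was compared within each tissue, with adjustment over all genes tested there. None of the members that passed the filter on low counts was called between Gnb5-/- and Gnb5+/+ mice by edgeR: 0 of 6 in atria (0.253% of 16181 genes called), 0 of 6 in ventricles (0.188% of 14866), 0 of 7 in cerebellum (0.0817% of 17139), 0 of 8 in cortex (0.0557% of 17967) and 0 of 7 in hippocampus (0.165% of 17588). The counts were also 0 of 6 for Gnb5+/- against Gnb5+/+ in atria (0.0124% of genes) and ventricles (0.0202%), and for Gnb5-/- against Gnb5+/- in atria (0.0494%) and ventricles (0.0874%). At an unadjusted p below 0.05 there were 2 members in atria (Scn10a and Scn2a, against 8.15% of all genes), 2 in ventricles (Scn10a and Scn4b, against 4.78%), 1 in hippocampus (Scn4b, against 7.7%), and 0 in cerebellum (against 5.85%) and cortex (against 7.39%). Between Gnb5+/- and Gnb5+/+ mice Scn10a alone had such a p in atria (against 7.22% of all genes) and in ventricles (against 4.84%). DESeq2 called 1 member, Scn10a, in atria (0.68% of genes) and in ventricles (0.424%), and 0 in cerebellum (0.286%), cortex (0.139%) and hippocampus (0.591%). In no tissue did the Gnb5-/- and Gnb5+/+ libraries of a tested member lie wholly apart, against 0.661% of all genes in atria, 0.552% in ventricles, 1.14% in cerebellum, 0.495% in cortex and 0.694% in hippocampus. Scn1a and Scn8a in heart, and Scn10a in cerebellum and hippocampus, were too low to be tested within a tissue.

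**Figure D3:**
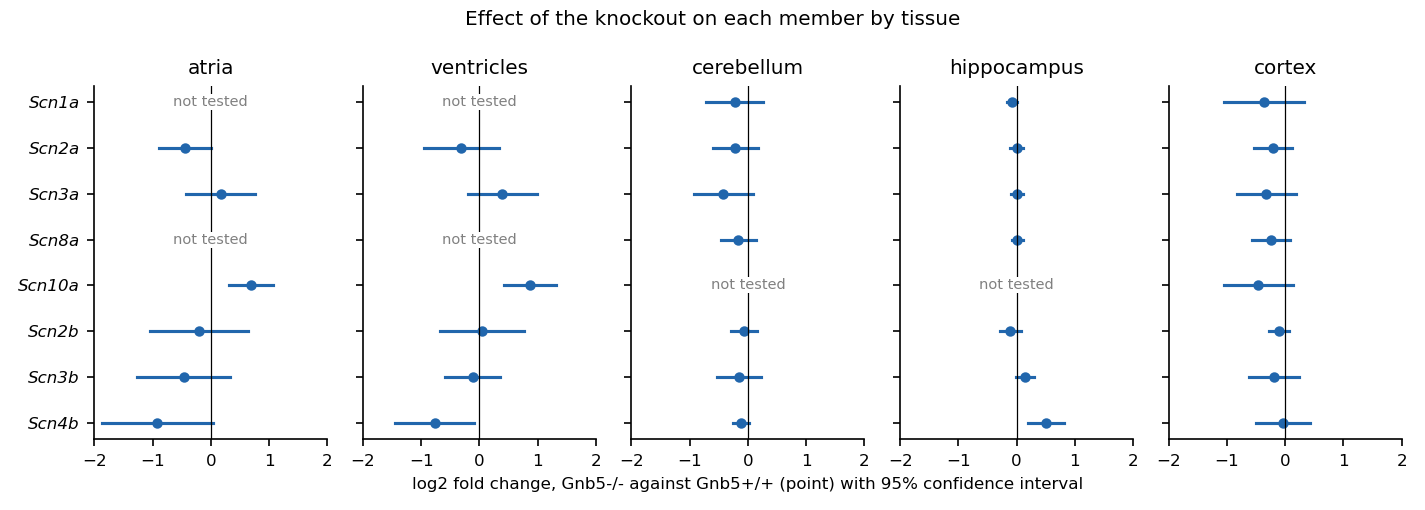
Log2 fold change of each member in Gnb5-/- against Gnb5+/+ mice (points) with 95% confidence intervals (lines) in 5 tissues, from edgeR. The interval of Scn10a lies above 0 in atria and ventricles and that of Scn4b above 0 in hippocampus and below 0 in ventricles, while none of the members passed the threshold after adjustment over all genes.

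Scn10a had a higher mean in mutant hearts, without passing the threshold of the fit across all genes. In atria the lowest, median and highest library was 9.43, 15.7 and 21.2 CPM in Gnb5+/+, 16.2, 23.1 and 31.0 in Gnb5+/- and 17.2, 24.1 and 33.7 in Gnb5-/- mice. The groups overlapped, with 4 of 6 Gnb5-/- and 4 of 6 Gnb5+/- libraries above the highest Gnb5+/+ library and all of them above the Gnb5+/+ mean. Leaving out each library in turn moved the Gnb5-/- log2 fold change between 0.58 and 0.81. The level was 1.61-fold that of Gnb5+/+ in Gnb5-/- atria (log2 fold change 0.69, SE 0.18, 95% interval 0.30 to 1.08, edgeR adjusted p = 0.20) and 1.49-fold in Gnb5+/- atria (0.58, SE 0.18, edgeR adjusted p = 0.610). A two-sided exact permutation test of the single gene gave p = 0.00649 and 0.0152 (0.234 and 0.281 after Benjamini-Hochberg adjustment over the 72 such tests of members).

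In ventricles Scn10a was 2.15, 4.43 and 5.65 CPM (lowest, median and highest) in Gnb5+/+, 3.63, 5.81 and 6.55 in Gnb5+/- and 4.62, 7.50 and 8.77 in Gnb5-/- mice. Gnb5-/- libraries were above the highest Gnb5+/+ library in 5 of 6 mice. The level was 1.82-fold in Gnb5-/- (log2 fold change 0.86, SE 0.21, 95% interval 0.42 to 1.31, edgeR adjusted p = 0.160) and 1.40-fold in Gnb5+/- ventricles (0.48, SE 0.22, edgeR adjusted p = 0.961), with an exact permutation p of 0.00433 for Gnb5-/- (0.234 after Benjamini-Hochberg adjustment). DESeq2 called the Gnb5-/- differences, with an adjusted p of 0.0347 in atria and 0.0173 in ventricles. The Gnb5-/- difference itself did not differ between ventricles and atria (interaction 0.19, 95% interval -0.31 to 0.70, edgeR adjusted p = 1). Without the Gnb5+/- ventricles of mouse 4, in which long transcripts were low, the ventricular adjusted p was 0.0845.

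Scn4b had a lower mean in mutant hearts, with a wide spread between animals and without passing the threshold. In atria the lowest, median and highest library was 7.64, 15.3 and 25.0 CPM in Gnb5+/+, 5.22, 9.87 and 12.1 in Gnb5+/- and 0.923, 8.18 and 17.6 in Gnb5-/- mice. In ventricles it was 45.9, 72.3 and 122 CPM in Gnb5+/+, 31.5, 48.7 and 83.7 in Gnb5+/- and 16.2, 43.1 and 73.7 in Gnb5-/- mice. All groups overlapped, and the log2 fold changes of Gnb5-/- against Gnb5+/+ were -0.92 in atria (SE 0.46, 95% interval -1.87 to 0.04, edgeR adjusted p = 0.645) and -0.77 in ventricles (SE 0.32, 95% interval -1.44 to -0.09, edgeR adjusted p = 0.925), neither passing the threshold. Mice 14 and 1 had the lowest 2 levels of all 18 mice in both tissues, at 0.923 and 2.03 CPM in atria and 29.8 and 16.2 CPM in ventricles, and both are Gnb5-/-. Gnb5+/- differences were -0.69 in atria and -0.48 in ventricles (edgeR adjusted p = 0.787 and 0.967).

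**Figure D4:**
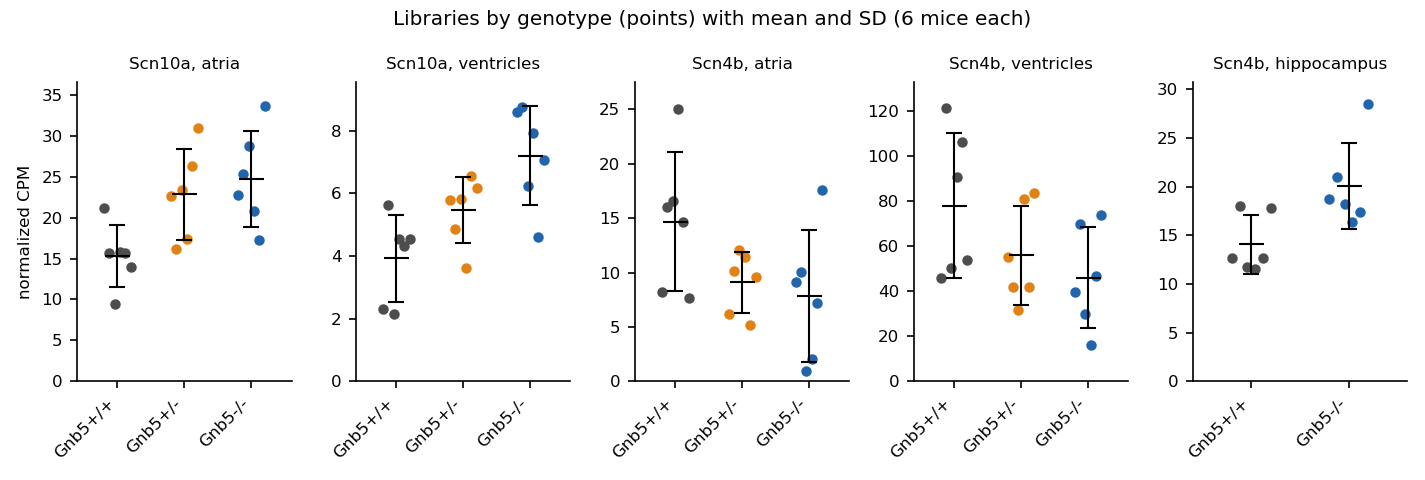
Normalized CPM of Scn10a and Scn4b in single libraries (points) by genotype, with mean and SD of 6 mice, in atria, ventricles and, for Scn4b, hippocampus. Gnb5-/- libraries of Scn10a run from 17.2 to 33.7 CPM in atria against 9.43 to 21.2 CPM in Gnb5+/+, and the groups overlap in each panel.

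Atrial libraries differed in what else they held. The 3 ventricular muscle markers summed to 73.3 to 1320.4 CPM in Gnb5+/+ atria, 42.0 to 683 in Gnb5+/- and 115 to 441 in Gnb5-/- atria, and mice 16 and 18, with the highest sums of 1320.4 and 975.5 CPM, were among the 4 highest atria for Scn4b. The 4 conduction tissue markers, led by the pacemaker channel gene Hcn4, summed to 17.2 to 48.8 CPM in Gnb5+/+ atria, 32.6 to 66.1 in Gnb5+/- and 12.3 to 71.1 in Gnb5-/- atria. In the order Gnb5+/+, Gnb5+/- and Gnb5-/-, the atrial medians of this sum were 21.6, 51.9 and 45.1 CPM, and those of Hcn4 were 6.70, 28.4 and 24.2 CPM, so that in atria these markers, like Scn10a, had higher medians in both mutant groups, with ranges that overlapped. In ventricles, where Scn10a also had higher medians in both mutant groups, the sum had medians of 36.4, 35.0 and 33.6 CPM in the same order. With the ventricular markers as a covariate the Gnb5-/- log2 fold change in atria was 0.69 for Scn10a and -0.81 for Scn4b, and with the conduction markers 0.74 and -0.92, none of them passing the threshold. These covariates were chosen after seeing the data. In atria the conduction markers themselves had higher medians in both mutant groups, so these fits cannot separate tissue content from genotype. The part of either in the levels of Scn10a and Scn4b was not tested. The atria of Gnb5-/- mouse 1 also held skeletal muscle and neuron markers, at 31.1 and 15.1 CPM.

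The other members tested in heart showed smaller or more variable differences. Scn2a in atria was 1.49, 2.90 and 3.13 CPM (lowest, median and highest) in Gnb5+/+ and 1.09, 1.95 and 2.65 in Gnb5-/- atria, for a log2 difference of -0.45 (SE 0.21, edgeR adjusted p = 0.611). Scn3a in ventricles was 1.60, 1.95 and 2.81 CPM in Gnb5+/+ and 2.05, 2.83 and 3.39 in Gnb5-/- ventricles, for a log2 difference of 0.39 (SE 0.28, edgeR adjusted p = 1). Scn3b and Scn2b had log2 fold changes from -0.47 to 0.04 in Gnb5-/- hearts, with standard errors of 0.23 to 0.40 and overlapping groups. Scn8a, too low for the fit within ventricles, counted 28 reads in the Gnb5-/- ventricles together, 20 in Gnb5+/- and 6 in Gnb5+/+ (exact permutation p = 0.0173 for Gnb5-/- against Gnb5+/+, 0.281 after Benjamini-Hochberg adjustment).

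In cerebellum and cortex every member tested had a negative log2 fold change in Gnb5-/- mice, 7 of 7 from -0.42 to -0.07 in cerebellum and 8 of 8 from -0.46 to -0.03 in cortex, none of them called. The long alpha subunit transcripts were low in the 3 Gnb5-/- brain libraries with a low gene-length index. In cerebellum Scn1a was 66.6 CPM in mouse 12 and 206 to 239 CPM in the other 5 Gnb5-/- mice, Scn2a 170.2 against 365 to 451, and Scn8a 158 against 296 to 327. In cortex Scn1a was 24.3 CPM in mouse 14 and 80.8 in mouse 3 against 135 to 164 in the other 4. Scn2b, with a shorter transcript, was 159 and 186 CPM in the same cortices against 156 to 209.7.

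The cerebellum of mouse 12 was below the other 5 Gnb5-/- cerebella for Scn1a, Scn2a, Scn3a and Scn8a, and also for Scn2b and Scn3b. The cortices of mice 14 and 3 were both below the other 4 Gnb5-/- cortices for Scn1a, Scn2a, Scn3a, Scn8a, Scn3b and Scn4b. Relative to the mean of the other Gnb5-/- libraries, mouse 12 was at 29.9% for Scn1a, 40.8% for Scn2a, 34.9% for Scn3a and 50.1% for Scn8a in cerebellum, and at 73.5% for Scn2b, 66.1% for Scn3b and 92.5% for Scn4b. The levels did not follow transcript length in every library. Relative to the mean of the other 4 cortices, mouse 14 was at 33.6% for Scn3b, which has the shortest transcript of the 8 members (4150 bases), at 42.9% for Scn4b and at 87.3% for Scn2b, and at 55.1% for Scn8a, which has the longest (11436 bases). In the Gnb5+/- ventricles of mouse 4, the library outside brain with a low index, Scn3b was at 42.9% of the mean of the other 5 and Scn2b at 96.2%. Without the libraries, the median log2 fold change of tested members moved from -0.16 to -0.07 in cerebellum and from -0.23 to -0.02 in cortex. In cerebellum 7 of 7 members stayed negative, from -0.26 to -0.0065, and in cortex 2 of 8 members were positive. With the index as a covariate the median was 0.00 in cerebellum, with 4 of 7 members positive, and -0.03 in cortex, with 3 of 8 positive.

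**Figure D5:**
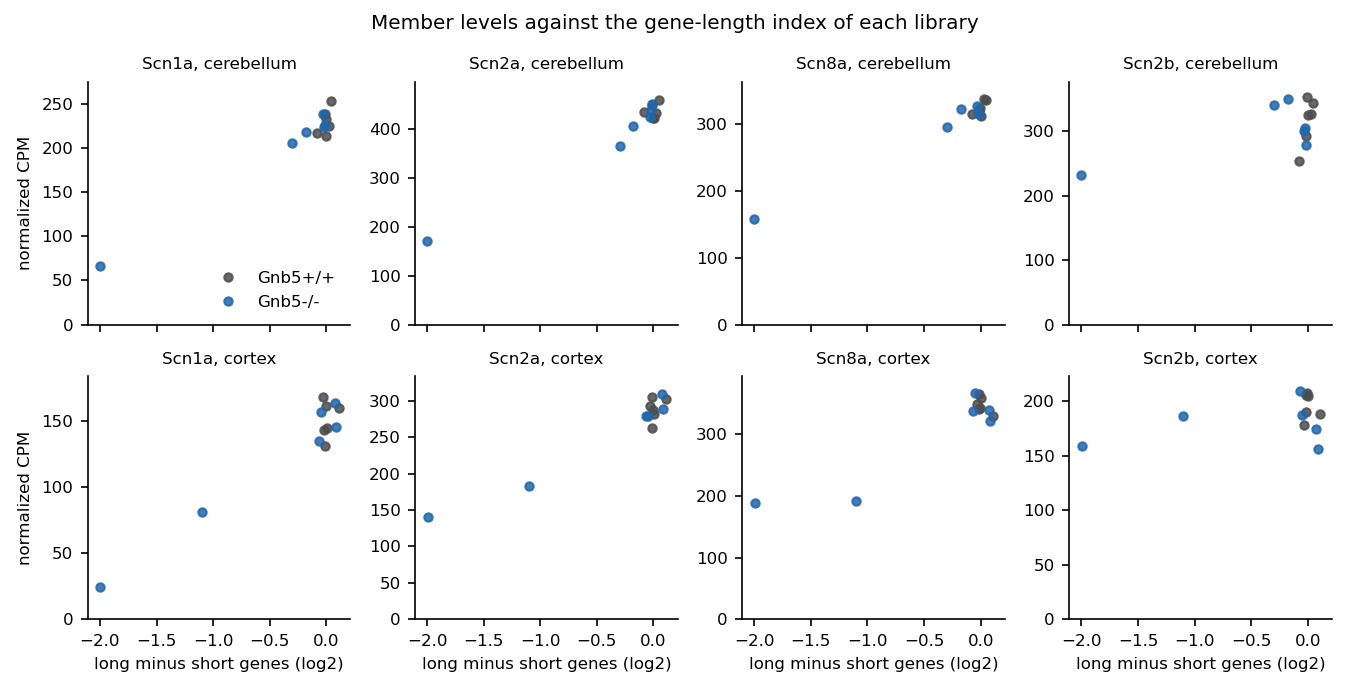
Normalized CPM of Scn1a, Scn2a, Scn8a and Scn2b in cerebellum (top) and cortex (bottom) against the long-minus-short gene index of each library (log2), for 6 Gnb5+/+ (grey) and 6 Gnb5-/- (blue) libraries. The 3 libraries at indices of -2.0, -2.0 and -1.10 hold the lowest Scn1a, Scn2a and Scn8a levels of their tissues.

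Hippocampus had no library with a low index, and its alpha subunit genes had the narrowest errors. Scn1a, Scn2a, Scn3a and Scn8a had log2 fold changes of -0.08, 0.00, 0.00 and 0.01 in Gnb5-/- mice, with standard errors of 0.04 to 0.05, against 0.14 to 0.32 in cerebellum and cortex, and 95% intervals within -0.17 to 0.11. Scn2b was -0.11 (SE 0.08) and Scn3b 0.15 (SE 0.07, edgeR adjusted p = 0.663). Scn3b was 249, 297 and 350.3 CPM (lowest, median and highest) in Gnb5-/- and 230.1, 272 and 279.6 in Gnb5+/+ hippocampus, with 4 of 6 Gnb5-/- libraries above the highest Gnb5+/+ library.

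Scn4b in hippocampus was 11.5, 12.7 and 18.0 CPM (lowest, median and highest) in Gnb5+/+ and 16.4, 18.5 and 28.5 in Gnb5-/- mice. The groups overlapped, with 4 of 6 Gnb5-/- libraries above the highest Gnb5+/+ library and mouse 5 highest. The level was 1.42-fold in Gnb5-/- mice (log2 fold change 0.50, SE 0.15, 95% interval 0.19 to 0.82, edgeR adjusted p = 0.391, exact permutation p = 0.0195, 0.281 after Benjamini-Hochberg adjustment), and did not pass the threshold. Leaving out each library in turn moved it between 0.37 and 0.59. The striatal neuron markers summed to 32.2 to 41.1 CPM in Gnb5-/- and 35.6 to 45.4 CPM in Gnb5+/+ hippocampus. Against cerebellum the Gnb5-/- difference was larger by 0.63 log2 units (95% interval 0.25 to 1.02, edgeR adjusted p = 0.891) and the log2 difference of cortex against hippocampus was -0.54 (edgeR adjusted p = 0.648), neither passing the threshold over all genes. No member was called for a difference of the Gnb5-/- effect between ventricles and atria (0.00583% of genes called), hippocampus and cerebellum (0.0248%), cortex and cerebellum (0.00992%) or cortex and hippocampus (0%). At an unadjusted p below 0.05 there was 1 member between ventricles and atria (Scn8a, against 4.53% of all genes, with 6 reads in all Gnb5+/+ ventricles together), 1 between hippocampus and cerebellum (Scn4b, against 3.79%), 0 between cortex and cerebellum (against 3.67%) and 1 between cortex and hippocampus (Scn4b, against 4.39%).

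Scn10a in cortex was 0.388, 0.644 and 0.851 CPM (lowest, median and highest) in Gnb5+/+ and 0.171, 0.472 and 0.683 in Gnb5-/- mice. Its log2 fold change of -0.46 (SE 0.28, edgeR adjusted p = 0.474) was opposite in sign to that in heart, and was -0.29 without the libraries of mice 14 and 3. Scn3a in cerebellum was 1.73, 2.21 and 2.85 CPM in Gnb5+/+ and 0.661, 1.77 and 2.35 in Gnb5-/- mice (log2 fold change -0.42, SE 0.23, edgeR adjusted p = 0.583), and was -0.26 without mouse 12.

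Channels are held in place and tuned by other proteins, and 14 of their genes were followed as a list: Fgf11, Fgf12, Fgf13 and Fgf14, which bind the channel tail, the ankyrins Ank2 and Ank3, Sptbn4, a spectrin of the axon initial segment, the adhesion proteins Nfasc, Nrcam and Cntn1, and Gpd1l, Rangrf, Cav3 and Pkp2, which affect the cardiac channel. As with the channel genes, 0 of the 13 or 14 tested were called between genotypes in any of the 9 comparisons. In Gnb5-/- against Gnb5+/+ mice 0 in atria, 1 in ventricles (Sptbn4), 1 in cerebellum (Rangrf), 0 in cortex and 1 in hippocampus (Fgf13) had an unadjusted p below 0.05, named here after their values were seen, against 8.15%, 4.78%, 5.85%, 7.39% and 7.7% of all genes. A count of 1 among 13 or 14 genes is near these shares. Their median log2 fold change was -0.04 in atria, -0.05 in ventricles, -0.03 in cerebellum, 0.0084 in cortex and 0.0045 in hippocampus, where all genes tested had medians of -0.01 to 0.01. Between tissues of Gnb5+/+ mice 13 of 14 differed between ventricles and atria, 5 higher and 8 lower in ventricles (51.6% of all genes, 21.8% higher and 29.8% lower). In the 6 pairs of a brain and a heart tissue 13 or 14 of 14 differed, against 86.3% to 87.4% of all genes. Within brain 11 differed between hippocampus and cerebellum (68.3%), 10 between cortex and cerebellum (69.1%) and 5 between cortex and hippocampus (33.5%), the last near the share of all genes.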

How the data were processed

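Total RNA of 72 tissue samples from 18 mice was sequenced with a stranded single-end protocol. The authors trimmed reads with cutadapt 1.8, aligned them to GRCm38 with STAR 2.5.3a and counted them per gene with HTSeq 0.9.1, and the deposited values are raw counts per gene, which leave out reads with several alignments. Groups came from the labels. Members and lists were chosen with earlier results of these data known.

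Genes were tested with edgeR 4.0.16 (R 4.3.3, TMM scaling, quasi-likelihood test, filterByExpr with a count minimum of 10) and Benjamini-Hochberg adjustment over all genes tested, with 0.05 as the threshold. Genotypes were fitted within each tissue. Tissues were fitted in the 30 Gnb5+/+ libraries without the mouse as a block, although the same mice gave each tissue, and the fit with that block was an alternative. Interactions of genotype with tissue were fitted with the mouse as a block. For single members an exact permutation test, two-sided, was run on log2 CPM with a prior count of 2, over 924 divisions, which cannot give a p below 0.00216. Intervals of 0 reads use 3 reads and cover counting error only. Depth ranged from 29204390 to 48807435 reads. All members are named, with the listed partner genes by counts and, for some members, the 3 most alike genes. Some results are not reported here, and the partner list is counted without the gene left out. Of 53715 gene rows, 53620 matched the GENCODE annotation used for lengths.

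Alternatives were DESeq2 1.42.0, RLE scaling, other filters, fewer groups, robust estimation, the replicate number as a block, other prior counts and lengths, and, chosen after seeing the data, marker and gene-length covariates and left-out libraries. Same-numbered libraries of different tissues come from the same mouse by the labels, and their deviations correlated (r of 0.0968 to 0.524). The test scripts were tested on simulated data.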

Additional observations from a re-analysis of the deposited data

Results flagged for a closer look

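In 11 of the 95 groups of 6 libraries with any spread, the highest or lowest library of a member was separated from the nearest one by a share of the group's whole range above Dixon's 95% critical value. For normally distributed values chance flags about 1 in 20 groups. In 5 of the 11 flagged groups the mean was below 1 CPM. In Gnb5-/- cerebellum, 4 of these were mouse 12, with 66.6 CPM of Scn1a, 170.2 of Scn2a, 0.661 of Scn3a and 158 of Scn8a, the library whose long genes were low. In Gnb5-/- atria, mouse 1 was highest in Scn1a (0.273 CPM, 12 reads) and Scn3a (1.89 CPM, 83 reads), and it also held the most skeletal muscle and neuron marker RNA of its group, whose part was not tested. The Gnb5+/- atria of mouse 4 held 0.889 CPM of Scn1a, from 33 reads, where the next library held 0.155. In hippocampus, Scn1a was lowest in Gnb5-/- mouse 5 (94.7 CPM, nearest 105) and Scn3b in Gnb5+/+ mouse 15 (230.1 CPM). The remaining 2 rest on few reads: Scn10a in the hippocampus of Gnb5-/- mouse 1 (0.0991 CPM, 5 reads) and Scn1a in the ventricles of Gnb5+/+ mouse 18 (0.0967 CPM, 2 reads).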

How the results depend on the processing

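All reported counts of called members between genotypes and for interactions were 0, so a ratio to the reported count judges only the comparisons of tissues. Of the alternative counts, fits leaving out a single library among them, 293 stayed within 1.5 times the reported count or, where that was 0, at 0. The other 3 moved from 0 to 1: DESeq2 in atria and in ventricles of Gnb5-/- against Gnb5+/+ mice (Scn10a in both), and the replicate block in hippocampus (Scn4b, edgeR adjusted p = 0.0274). The replicate numbers do not pair mice of different genotypes, and same-numbered libraries did not deviate together, so the replicate block adds no design information there. In the comparisons of tissues, where the number is the mouse, the replicate block changed 1 call, Scn3a in cortex against hippocampus (-0.22). Counts between tissues moved by 1 or 2 members: ventricles against atria from 7 to 8 in DESeq2 and 5 with 2 tissues only, hippocampus against cerebellum from 6 to 7 in DESeq2, with RLE scaling and with 2 tissues only, cortex against cerebellum from 7 to 8 in DESeq2, and cortex against hippocampus from 4 to 5 in DESeq2 and with the replicate block and to 6 with 2 tissues only. Leaving out each library in turn was done only for the comparisons of genotypes, where all counts of called members stayed at 0.

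Of the log2 fold changes, 1034 alternative values kept direction and side of the threshold, 12 passed it where the reported one did not, and 20 changed sign, each from a value near 0 or in a tissue with libraries low in long genes. With the gene-length index as a covariate the Gnb5-/- values in cerebellum were 0.0445 for Scn1a, 0.00084 for Scn2a, 0.0145 for Scn8a and 0.0155 for Scn2b, and in cortex 0.0112 for Scn1a, 0.0649 for Scn3b and 0.17 for Scn4b. Without the cortex libraries of mice 14 and 3, Scn3b was 0.0399 and Scn4b 0.15. In atria, Scn3a in Gnb5+/- against Gnb5+/+ was -0.0027 with the replicate block and -0.18 with the conduction markers, and Scn2b in Gnb5-/- against Gnb5+/- was 0.0493 with the index, 0.0470 with the ventricular markers and 0.0024 with the conduction markers. In hippocampus Scn2a was -9.8e-05 without a filter and -0.0020 with 10 counts in every library, where Scn3a was -0.0015. Scn4b in hippocampus against atria was 0.0012 in DESeq2 and 0.0047 with RLE scaling, and the Scn2a difference of the Gnb5-/- effect between cortex and cerebellum was -0.0049 in DESeq2. Other causes were not tested. Depth limits Scn1a and Scn8a in heart and Scn10a in cerebellum and hippocampus, where few reads were counted.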
